A study of Mus musculus with 12 samples.

Results

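The genes described here are 10 heat shock proteins and chaperones, taken by name from a table of 54532 mouse genes: Hspa1a, Hspa1b, Hsph1, Dnajb1, Hsp90aa1, Hspa8, Hsp90ab1, Hspa5, Hspd1 and Hspe1. All 10 passed the filter on low counts, which kept 15003 genes. Transcripts were counted by bulk RNA sequencing in 12 libraries of haematopoietic stem and progenitor cells, sorted as Lin-ckit+ cells from fresh mouse bone marrow and never cultured. Wild-type cells (WT) were Dnmt3a+/+. Mutant cells (RH) were Dnmt3aR878H/+, with 1 changed allele of the DNA methyltransferase gene Dnmt3a. The labels describe a C57BL/6 background with the Mx1-cre transgene, whose promoter responds to interferon and is active in blood-forming cells. The mice took part in an in vivo competition experiment, were treated for 1 month with metformin (MET) or vehicle (VEH), and have no age in the labels. Metformin, a drug given for diabetes, inhibits complex I of the respiratory chain. Each genotype was profiled with and without the drug to look for its mechanism, which gave 4 groups of 3 libraries: vehicle-treated WT VEH and RH VEH, and metformin-treated WT MET and RH MET.

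Chaperones bind unfolded proteins and help them reach or keep their shape. Hsp70 proteins work in cycles of ATP hydrolysis that are started by Hsp40 proteins and reset by nucleotide exchange factors, and Hsp90 proteins act later on clients such as kinases and hormone receptors. Part of the family is made in every cell, while another part is switched on by heat shock factor 1 (HSF1) when unfolded proteins accumulate. The endoplasmic reticulum and the mitochondrion have their own members. In blood stem cells, protein folding capacity is studied because these cells make protein slowly and tolerate misfolded protein poorly.

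Total counts ran from 13359583 to 21938003 per library, and the 10 genes together took 0.876% to 1.39% of them. Levels are given as CPM, counts scaled to a common library size with TMM factors, and 1 CPM stood for 8.37 to 24.8 reads. Only 2 animals were used per treatment group, per the labels, and which library came from which animal is not stated. The p-values therefore reflect the variation among these libraries, some of which may be technical. In WT MET 2 and RH VEH 2, 33.3% and 40.8% of counts came from the mitochondrial genome, against 1.57% to 4.32% in the other 10 libraries. The libraries also fall into round 1 (WT MET 1, RH VEH 1, and libraries 1 and 2 of both WT VEH and RH MET), whose counts are in both deposited tables, and round 2, whose counts are in the larger table only. Columns were matched by equal counts in every gene and not by name, since the column numbered RH VEH 1 in the larger table is numbered RH VEH 2 in the smaller one. What a round stands for in the laboratory is not given in the labels. Each group has libraries of both rounds, but not in equal parts. WT VEH and RH MET have only library 3 in round 2, while WT MET and RH VEH have libraries 2 and 3 there. Every comparison between groups thus sets mostly round 1 libraries against mostly round 2 libraries, with WT MET 2 or RH VEH 2 or both on the round 2 side. As for the labelled cell type, Kit stood at 118 to 200 CPM and Cd34 at 53.3 to 158 CPM, and the summed level of 10 stem and progenitor markers, of which Mecom was lowest (2.51 to 6.59 CPM), was 638 to 1106 CPM. The sum of 11 erythroid markers was higher, 9301 to 14985 CPM. Among 12 T and NK cell markers, which summed to 59.2 to 166 CPM, Cd3e stood at 0.378 to 3.08 CPM and Nkg7 was highest at 34.5 to 70.8 CPM, and among 9 stromal and endothelial markers levels ran from 0.298 to 1.13 CPM for Cdh5 up to 12.2 to 445 CPM for Col1a1. The sum of 8 megakaryocyte markers was 561 to 1932 CPM, with Itga2b highest at 229 to 803 CPM and Gp1bb lowest at 0 to 0.478 CPM. That of 8 B cell markers was 17.2 to 62.1 CPM, and Igll1 among them was at 0 to 3.65 CPM.

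The inducible genes Hspa1a and Hspa1b are near-identical copies that lie side by side on the minus strand of chromosome 17 (mm10). Hspa1a (ENSMUSG00000091971) spans 34969190 to 34972156 and Hspa1b (ENSMUSG00000090877) spans 34956436 to 34959238. The 250 bases before each start are shown because the counts of both genes moved together through all 12 libraries. Reads shared between the copies may have a part in this, which was not tested. They come from the RefSeq promoter table (GRCm38.p6), at chr17:34972157-34972406 and chr17:34959239-34959488 on the minus strand, and are written 5′ to 3′. They agree at 247 of 250 bases (98.8%). Capitals mark a pair of facing GAA units, the building block of the element that HSF1 binds, at −104 to −97 from the start.
Hspa1a: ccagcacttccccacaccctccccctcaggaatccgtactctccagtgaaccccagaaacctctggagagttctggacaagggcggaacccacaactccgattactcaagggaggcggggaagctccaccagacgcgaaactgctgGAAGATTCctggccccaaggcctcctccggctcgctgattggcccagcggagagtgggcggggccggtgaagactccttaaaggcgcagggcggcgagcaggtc
Hspa1b: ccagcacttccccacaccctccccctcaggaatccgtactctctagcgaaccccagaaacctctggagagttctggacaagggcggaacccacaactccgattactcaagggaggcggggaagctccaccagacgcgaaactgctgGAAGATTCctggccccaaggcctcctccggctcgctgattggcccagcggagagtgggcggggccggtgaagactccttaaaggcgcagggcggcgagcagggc

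A pair of facing units (GAANNTTC or TTCNNGAA, searched on both strands) was present in 15.1% of 32851 windows of 300 bases around RefSeq gene starts, 250 before and 50 after. A run of 3 alternating units (GAANNTTCNNGAA or TTCNNGAANNTTC, which contains the pair) was rarer, at 0.603% of windows. Of the 10 genes, 7 had a window in the table, and Hsph1, Hspd1 and Hspe1 held the longer run. Hspd1 and Hspe1 are arranged head to head on chromosome 1 and overlap by 112 bases (55088132 to 55088243). A single site at chr1:55088054-55088081 therefore falls in the windows of both, read from opposite strands. Their sites and the Hsph1 site (chr5:149636281-149636307, minus strand) are shown with the units in capitals. The fourth line is from Hspa5 (chr2:34772021-34772047, plus strand), with the endoplasmic reticulum stress element (ERSE, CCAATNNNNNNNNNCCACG) in capitals, which 0.119% of windows held.
Hspd1: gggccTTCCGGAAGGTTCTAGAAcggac
Hspe1: gtccgTTCTAGAACCTTCCGGAAggccc
Hsph1: ctgcagaTTCTGGAAAGTTCtcctcag
Hspa5: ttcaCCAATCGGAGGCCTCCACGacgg

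These sites lie inside the spans that the deposited table gives for Hspd1 (chr1:55077835-55088243), Hsph1 (chr5:149614287-149636376) and Hspa5 (chr2:34771970-34777547). Neither the pair nor the longer run of units was found in the windows of Dnajb1 (chr8:83608193-83612653). The genes without a window here are Hspa8 (chr9:40800984-40810087), Hsp90aa1 (chr12:110690605-110702728) and Hsp90ab1 (chr17:45567775-45573271). A match is a description of these letters and does not show that a factor was bound in these cells.

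Per kilobase of gene model, the constitutive genes stood above the inducible ones. The Hsp90 gene Hsp90ab1 had the highest mean level, 1111 CPM per kb, rank 36 of the 15003 genes tested. Hspa8, which encodes the constitutive Hsp70 protein Hsc70, followed with 677 CPM per kb. Hsp90aa1, the inducible Hsp90 gene, stood at 452 CPM per kb, Hspa5, the Hsp70 of the endoplasmic reticulum (BiP), at 345 and Hspd1, the mitochondrial chaperonin Hsp60, at 326. Next came Hspe1, the lid of that chaperonin, at 193 CPM per kb, then Hspa1b at 181, Hspa1a at 78.5, Dnajb1 at 74.7 and Hsph1 at 34.4. Over the 12 libraries, 3 pairs of neighbours in this order did not overlap. Hsp90ab1 (lowest 826 CPM per kb) stayed above Hspa8 (highest 746), Hspa8 (lowest 595) above Hsp90aa1 (highest 548), and Dnajb1 (lowest 61.5) above Hsph1 (highest 57.9). Some 150-base words of transcripts also occur in another gene: 28.5% for Hsp90aa1, 23% for Hspa8, 16.1% for Hspd1 and 6.64% for Hspe1. Words of Hsp90ab1, Hspa5, Hsph1 and Dnajb1 do not. How reads from shared stretches were counted is not given, so the place of the genes that have them is uncertain.

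The inducible Hsp70 genes varied most between libraries and the constitutive one least. The highest level over the lowest was 17.9 for Hspa1a and 11.7 for Hspa1b. It was 2.60 for Hsph1, a nucleotide exchange factor of the Hsp110 type, and 2.47 for Hspe1. For the other 6 genes it lay between 1.25 (Hspa8) and 1.83 (Hspa5). The coefficient of variation over the 12 libraries was 67.7% for Hspa1a and 57.7% for Hspa1b, against 7.30% for Hspa8. The plot of levels by group shows this spread gene by gene.

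**Figure D1:**
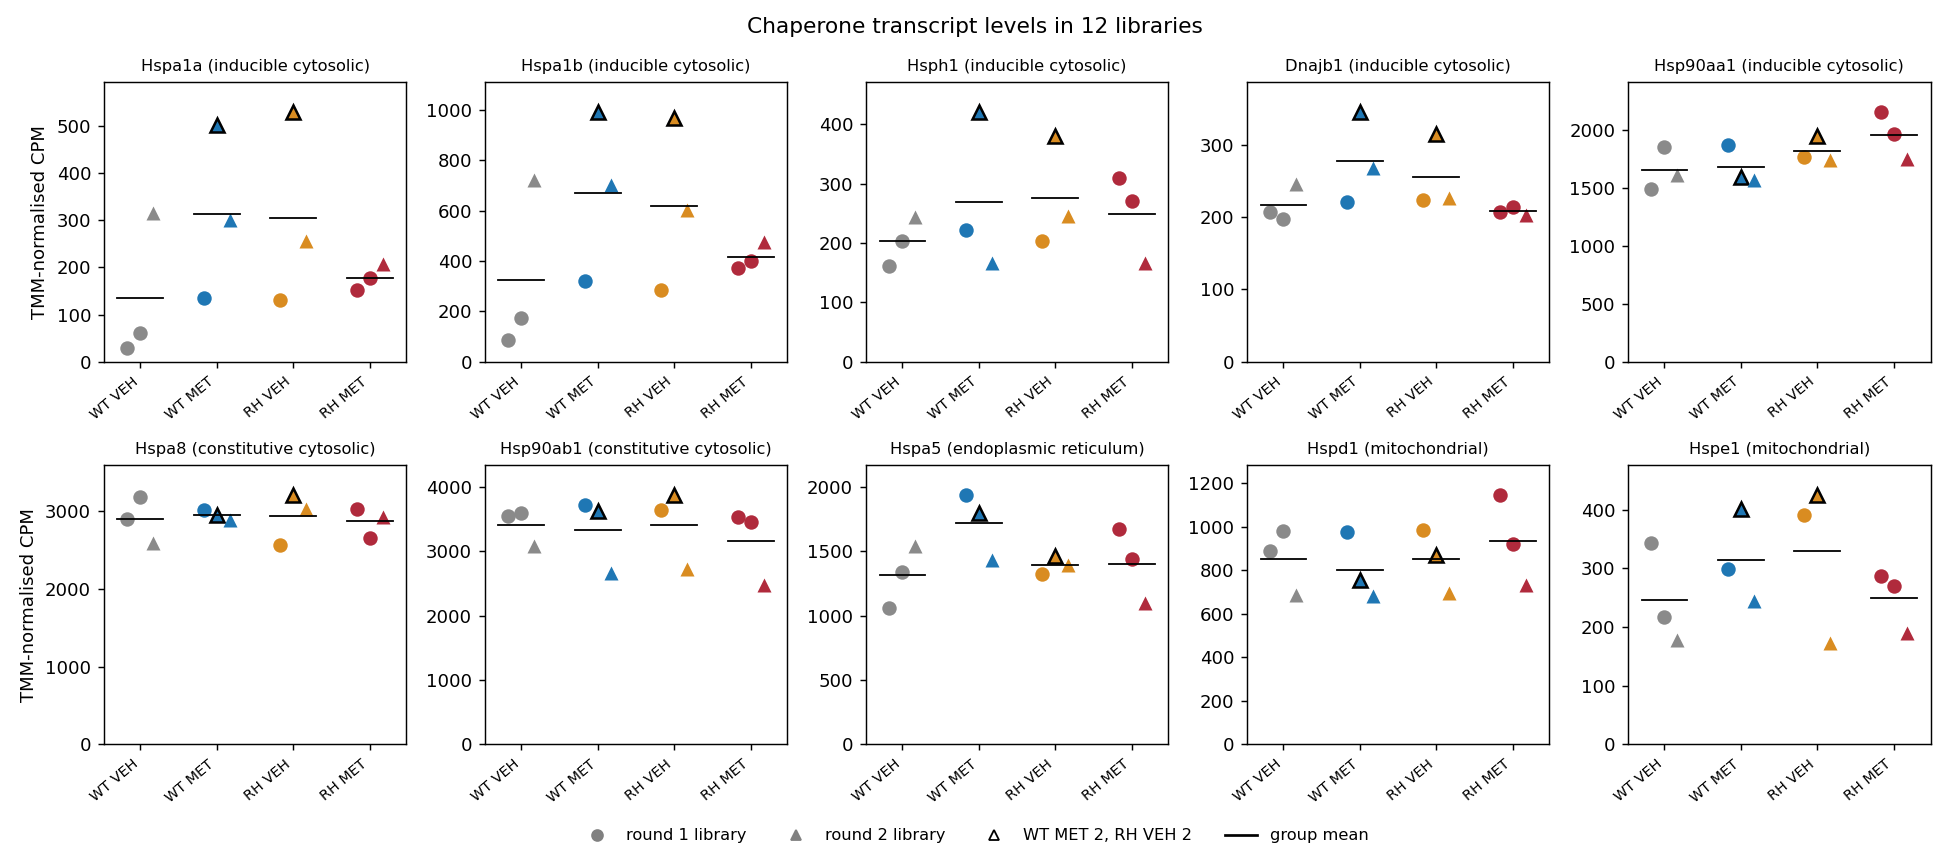
Levels of the 10 chaperone genes in TMM-normalised CPM (vertical axis, from 0) in the 4 groups, with 1 point per library, circles for round 1, triangles for round 2, black outlines for WT MET 2 and RH VEH 2, and a line at each group mean. Hspa1a runs from 29.5 CPM in WT VEH 1 to 529 CPM in RH VEH 2, whereas Hspa8 stays between 2559 and 3207 CPM.

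Hspa1a stood at 29.5, 60.9 and 316 CPM in WT VEH 1 to 3 and at 136, 501 and 301 CPM in WT MET 1 to 3. In RH VEH it stood at 130, 529 and 256 CPM, and in RH MET at 151, 177 and 207 CPM. The lowest values were in WT VEH 1 and 2 and the highest in the libraries rich in mitochondrial counts, WT MET 2 and RH VEH 2. All 4 groups overlapped.

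Hspa1b followed Hspa1a closely. It stood at 84.6, 173 and 721 CPM in WT VEH and at 319, 991 and 701 CPM in WT MET. In RH VEH it stood at 285, 966 and 604 CPM, and in RH MET at 371, 399 and 476 CPM. The same libraries were lowest and highest, and the ratio of Hspa1b to Hspa1a counts stayed between 1.83 (RH VEH 2) and 2.87 (WT VEH 1). The coding sequences agree at 99.6% of bases and the 3′ untranslated regions at 59.9%, and 46.0% of 150-base words of Hspa1a transcripts also occur in another gene. Counting could therefore split reads between the copies. The gene model Gm20481, with 0 counts in all, also covers 2225 bases of Hspa1a on the opposite strand and none of Hspa1b, so reads there may have been left out for Hspa1a only. Their separate levels, their ratio, their place in the order of levels and how closely they move together are uncertain. With both counts summed, the total ran from 114 CPM in WT VEH 1 to 1495 CPM in RH VEH 2.

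Hsph1 stood at 162, 203 and 244 CPM in WT VEH, at 221, 421 and 167 CPM in WT MET, at 204, 381 and 246 CPM in RH VEH and at 310, 271 and 167 CPM in RH MET. It was also highest in WT MET 2 and RH VEH 2. Dnajb1, an Hsp40 partner of Hsp70, showed the same pair on top at 345 and 315 CPM, while the other 10 libraries lay between 197 and 267 CPM. Hsp90aa1 did not share this order. Its highest level, 2155 CPM, was in RH MET 1 and its lowest, 1489 CPM, in WT VEH 1. For this gene WT MET 2 stood at 1594 CPM and RH VEH 2 at 1949 CPM.

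Among the constitutive and organelle genes, Hspa8 ranged from 2559 to 3207 CPM with no group apart from another. Hsp90ab1 stood at 3549, 3602 and 3084 CPM in WT VEH, 3716, 3631 and 2660 CPM in WT MET, 3644, 3879.8 and 2731 CPM in RH VEH, and 3535, 3463 and 2476 CPM in RH MET. In every group library 3, always of round 2, was the lowest. Hspa5 ranged from 1061 CPM in WT VEH 1 to 1938 CPM in WT MET 1. Hspd1 ranged from 681 CPM in WT MET 3 to 1148 CPM in RH MET 1, and Hspe1 from 172 CPM in RH VEH 3 to 425 CPM in RH VEH 2. The next highest Hspe1 level, 401 CPM, was in WT MET 2, so the libraries rich in mitochondrial counts were on top for this mitochondrial gene too. The ratio of Hspd1 to Hspe1 per kilobase, 1.41 to 2.52 in the other 10 libraries, was lowest in WT MET 2 (1.05) and RH VEH 2 (1.15).

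For RH against WT under vehicle, all 10 genes had fitted differences above 0, as did 50.3% of all genes tested, but none passed the threshold. The threshold was an adjusted p under 0.05 in edgeR's quasi-likelihood test with Benjamini-Hochberg adjustment over all 15003 genes, and 0% of all genes passed it here. No member had an unadjusted p under 0.05, against 2.03% of all genes, and DESeq2 called no member (0.02% of all genes). The median log2 fold change of the 10 genes was 0.17, against 0.00 for all genes. Hspa1a showed the largest difference, 0.98 ± 0.513 (SE, n = 3 per group; edgeR adjusted p = 0.977), with a group mean of 305 ± 204 CPM (SD) in RH VEH and 135 ± 157 in WT VEH. For Hspa1b the log2 fold change was 0.71 ± 0.424, for Hspe1 0.56 ± 0.334 and for Hsph1 0.38 ± 0.381. The other 6 genes lay between 0.02 (Hspa8) and 0.18 (Hsp90aa1). Within a round, each comparison of 2 groups has a group of 1 library, so the values for single rounds given here and below are descriptions. Hspa1a stood at 1.51 in round 1 and 0.27 in round 2, and without WT MET 2 and RH VEH 2 at 0.68. Leaving out single libraries moved it from 0.65 (without WT VEH 1) to 1.80 (without WT VEH 3), and Hspe1 fell to 0.23 without RH VEH 2. Without the filter on low counts, edgeR called Hspa1a at an adjusted p of 2.41e-05 and Hspa1b at 0.0212, with 0.636% of all genes. The log2 fold change of Hspa1a did not grow there (0.94), while its SE was 0.173 in place of 0.513, so these calls rest on the smaller SE. Cell type markers differed alongside, with 11 of 12 granulocyte markers lower in RH VEH (median −0.64) and 7 of 7 tested megakaryocyte markers higher (0.33). Without WT MET 2 and RH VEH 2 these medians were −0.30 and 0.10. Within round 1 they were 0.01 and −0.07, and within round 2 they were −1.46 and 0.83. Of other lists, 10 of 12 T and NK markers were higher (median 0.30). Stromal and endothelial (8 of 9, −0.27) and monocyte and dendritic markers (8 of 10, −0.27) were mostly lower, and the remaining lists were mixed.

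For metformin against vehicle in WT cells the same WT VEH libraries were the reference, so the values below are not independent of those above. All 10 genes again had fitted differences above 0, as did 51.9% of all genes, with a median of 0.31 against 0.01 for all genes. None passed the threshold (0% of all genes), none had an unadjusted p under 0.05 (4.03% of all genes) and DESeq2 called none (0.00667%). Hspa1a showed a log2 fold change of 1.03 ± 0.513 and Hspa1b one of 0.84 ± 0.424 (edgeR adjusted p = 0.876 for both). Hspe1 followed with 0.53 ± 0.340 and Hspa5 with 0.41 ± 0.189. Hspa5 had means of 1313 CPM in WT VEH (SD 241, n = 3) and 1723 CPM in WT MET (SD 259), and its difference was 0.68 within round 1 and 0.04 within round 2. Hspa1a was at 1.57 within round 1 and 0.31 within round 2, and ran from 0.69 without WT VEH 1 to 1.84 without WT VEH 3. With no filter on low counts, edgeR called Hspa1a (adjusted p = 1.6e-05) and Hspa1b (0.00276), with 0.792% of all genes, again at a log2 fold change of Hspa1a that was no larger (0.96) and an SE of 0.173. Hspe1 was at 0.24 without WT MET 2. Of the cell type markers, 7 of 7 megakaryocyte genes were higher in WT MET (median 0.80, or 0.43 without WT MET 2 and RH VEH 2, 3 with an unadjusted p under 0.05) and 12 of 12 granulocyte genes lower (−0.38, or −0.01 without this pair). Mast and basophil genes were also higher (6 of 6, median 0.24), and the remaining lists were mixed.

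**Figure D2:**
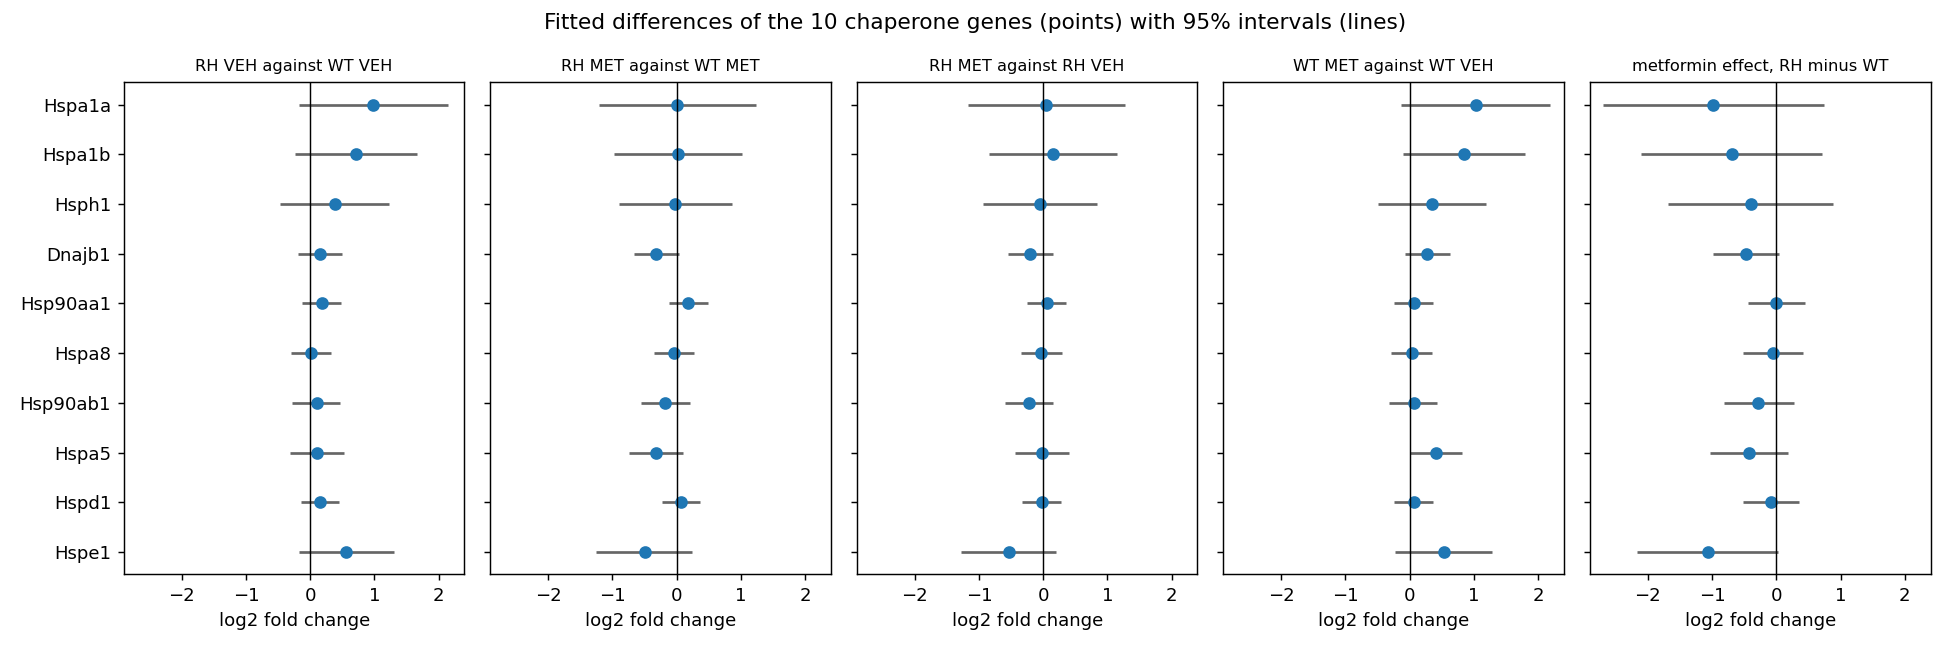
Fitted log2 fold changes of the 10 genes (horizontal axis) with 95% confidence intervals from edgeR in the 5 comparisons of the design, 1 panel each. In the panels against WT VEH all 10 points lie above 0, and the intervals of Hspa1a are the widest, from −0.18 to 2.15 for RH and from −0.14 to 2.19 for metformin.

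Under metformin, none of the 10 genes passed the test for RH against WT, and the fitted differences were mixed in sign. Of the members, 4 had higher and 6 lower fitted levels (48% and 52% of all genes), none was called (0.00667% of all genes, 1 gene) and none had an unadjusted p under 0.05 (5.78%). DESeq2 called no member either (0.147% of all genes). Dnajb1 was the 1 member whose libraries did not overlap, at 207, 215 and 204 CPM in RH MET against 221, 345 and 267 CPM in WT MET. The gap between RH MET 2 and WT MET 1 was small, 8.94% of all genes were separated in this direction, and the log2 fold change was −0.32 ± 0.163 (edgeR adjusted p = 0.738). Without RH MET 3 the Dnajb1 value was −0.15. Hspe1 stood at −0.50 ± 0.338, but at −0.22 without WT MET 2 and −0.10 within round 1, and Hspa5 at −0.32 ± 0.192. Hspa1a (0.01 ± 0.537), Hspa1b (0.02 ± 0.444) and Hsph1 (−0.02 ± 0.394) were near 0 with wide intervals, for Hspa1a from −1.21 to 1.23. Within rounds these 3 genes went opposite ways, at 0.27, 0.27 and 0.39 in round 1 and at −0.93, −0.81 and −0.79 in round 2, where WT MET 2 belongs. Alongside, 12 of 12 granulocyte markers were higher in RH MET (median 0.85) and 7 of 7 megakaryocyte markers lower (−0.70). All 12 of 12 T and NK markers were lower (−0.98, 7 with an unadjusted p under 0.05). Without WT MET 2 and RH VEH 2 these medians were 0.57, −0.25 and −0.90. For T and NK markers the median was −1.60 within round 1 and −0.35 within round 2. Erythroid (10 of 11, median −0.20) and stromal and endothelial markers (8 of 9, −0.33) were mostly lower too, and the remaining lists were mixed.

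For metformin against vehicle in RH cells, 3 genes were higher and 7 lower (49.3% and 50.7% of all genes). No member was called (0% of all genes; 2.43% had an unadjusted p under 0.05, no member among them), and DESeq2 called none (0%). Dnajb1 again separated the groups, with 224, 315 and 227 CPM in RH VEH above the RH MET libraries, as 2.81% of all genes did, and its log2 fold change was −0.20 ± 0.162 (edgeR adjusted p = 0.932). Hspe1 stood at −0.54 ± 0.333 (−0.22 without RH VEH 2) and Hsp90ab1 at −0.22 ± 0.174. Hspa1a had group means of 178 ± 27.9 CPM (SD, n = 3) in RH MET and 305 ± 204 in RH VEH, while its fitted difference, which takes the round into account, was 0.05 ± 0.540. Without the round term that difference was −0.77. Within rounds it was 0.33 in round 1 and −0.89 in round 2, where RH VEH 2 belongs. In the same comparison 12 of 12 T and NK markers were lower in RH MET (median −1.20, 8 with an unadjusted p under 0.05). At the same time 12 of 12 granulocyte markers were higher (1.21). Without WT MET 2 and RH VEH 2 these medians were −1.34 and 0.94. They were −1.74 and 0.90 within round 1, and −0.53 and 1.44 within round 2. The T and NK markers summed to 59.2 to 125 CPM in RH MET and 105.5 to 166 CPM in RH VEH, which overlap. Their group means passed 10 CPM for 2 of the 12 markers in RH MET and for 4 in RH VEH. Megakaryocyte (7 of 7, median −0.25), erythroid (10 of 11, −0.17) and B cell markers (7 of 8, −0.28) were also lower. The megakaryocyte median was 0.00 without WT MET 2 and RH VEH 2. Mast and basophil (5 of 6, 0.36) and stromal and endothelial markers (7 of 9, 0.21) were mostly higher.

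The difference between the metformin effects in RH and in WT cells used all 4 groups. It lay below 0 for 9 of the 10 genes and above 0 for the other, against 51.7% and 48.3% of all genes, with a median of −0.41 against −0.02 for all genes. None was called (0% of all genes), none had an unadjusted p under 0.05 (6.21%), and DESeq2 called none (0%). Hspe1 was at −1.06 ± 0.496 and Hspa1a at −0.98 ± 0.755 (edgeR adjusted p = 0.648 and 0.68). Dnajb1 was at −0.47 ± 0.237 and Hspa5 at −0.42 ± 0.278. Hsp90aa1 (0.00 ± 0.204) and Hspa8 (−0.05 ± 0.211) were the members nearest to 0. Hspe1 was at −0.50 without WT MET 2 and RH VEH 2 and at −0.57 within round 1. Leaving out WT VEH 3 moved Hspa1a to −2.02 and leaving out RH MET 3 moved it to −0.38. Without the filter on low counts edgeR called Hspa1a (adjusted p = 0.0405) and Hspe1 (0.0214), with 1.57% of all genes, at log2 fold changes of −0.87 and −0.96 and SEs of 0.254 and 0.263. The medians of cell type markers were 1.58 for granulocytes, −1.13 for megakaryocytes and −1.18 for T and NK cells. Without WT MET 2 and RH VEH 2 they were 0.97, −0.43 and −1.26. Medians of the remaining cell lists ran from −0.39 (erythroid) to 0.19 (monocyte and dendritic). No marker gene was called in any of the 5 comparisons, and the part of these markers in the chaperone values was not tested.

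**Figure D3:**
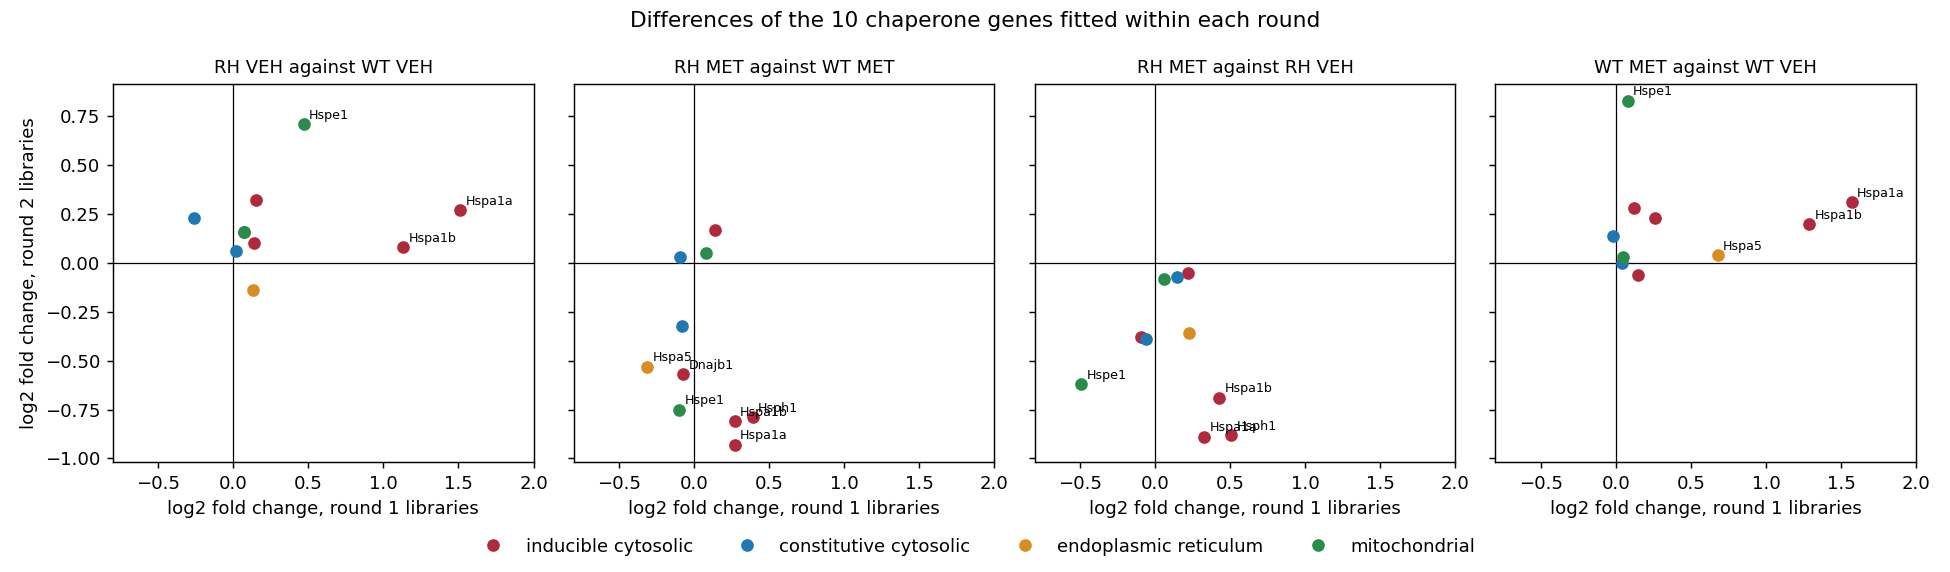
Log2 fold changes of the 10 genes fitted within round 1 (horizontal axis) and within round 2 (vertical axis), 1 point per gene, coloured by class, for the 4 comparisons between 2 groups, each with a group of 1 library. For RH against WT under metformin, Hspa1a lies at 0.27 in round 1 and −0.93 in round 2.

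The clearest separation of the inducible Hsp70 genes ran along the rounds. Hspa1a stood at 29.5 to 177 CPM in round 1 and at 207 to 529 CPM in round 2, and Hspa1b at 84.6 to 399 CPM against 475.5 to 991 CPM, so neither overlapped. Hspd1 went the other way without overlap, from 889 to 1148 CPM in round 1 to 681 to 873 CPM in round 2. Separation of this kind was seen in 1.04% of all genes for higher and 1.75% for lower levels in round 2. The comparison of rounds is not one of the study's and was added after these values were seen.

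With group held in the fit, the log2 fold change of round 2 against round 1 was 1.66 ± 0.401 (SE, n = 6 per round) for Hspa1a, 1.48 ± 0.328 for Hspa1b and −0.43 ± 0.102 for Hspd1. The edgeR adjusted p-values were 0.159, 0.133 and 0.133, so no member passed the threshold, as 0.0467% of all genes did. These 3 members had an unadjusted p under 0.05, as did 14.4% of all genes. DESeq2 called the same 3 (adjusted p = 0.00556, 6.4e-05 and 0.00421) with 2.61% of all genes, and edgeR with no filter called Hspa1a and Hspa1b with 2.04%. Without WT MET 2 and RH VEH 2, edgeR called Hsp90ab1, Hspd1 and Hspe1 with 10.4% of all genes, all 3 lower in round 2 (−0.39 ± 0.104, −0.48 ± 0.101 and −0.65 ± 0.145), and Hspa1a stood at 1.43 ± 0.473 (edgeR adjusted p = 0.12). Without RH VEH 2 alone it called Hspd1 (adjusted p = 0.0464) with 1.28% of all genes. Hspa8 had a difference of 0.01 ± 0.106 and Hspa5 one of −0.06 ± 0.140. In all, 5 members lay above 0 and 5 below, as did 51.1% and 48.9% of all genes.

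**Figure D4:**
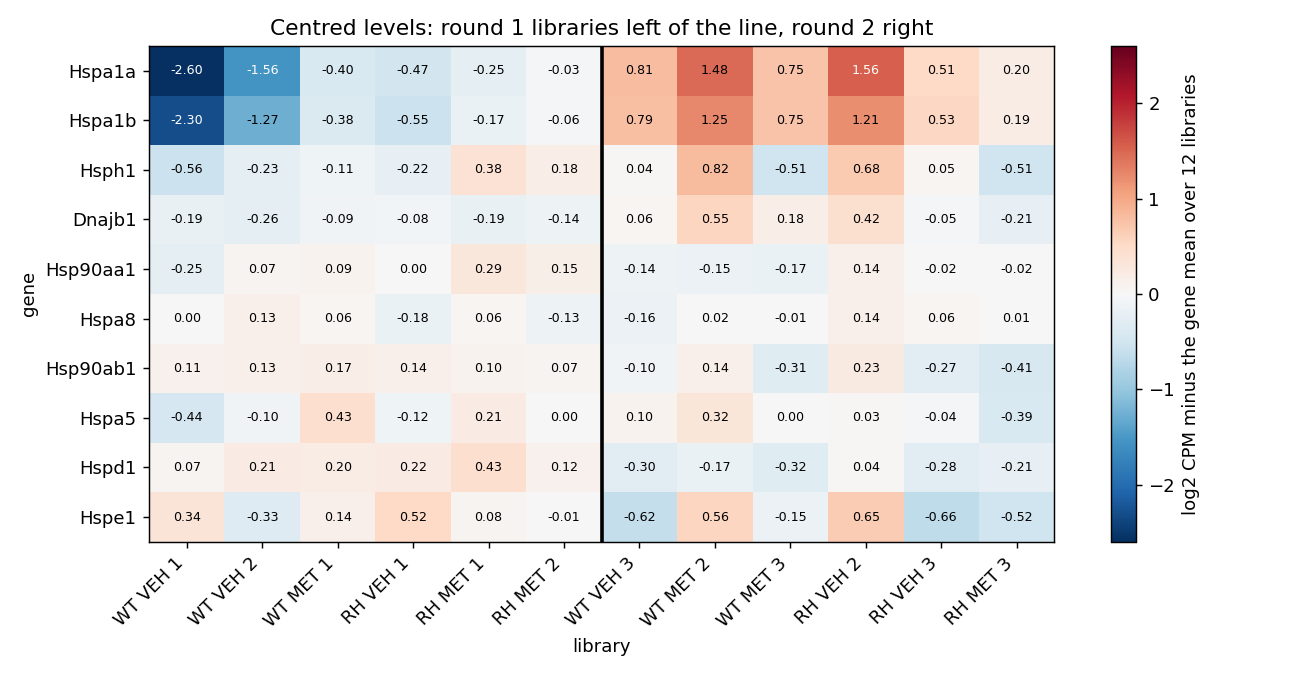
Log2 CPM of each of the 10 genes (rows) minus its mean over the 12 libraries (columns), with round 1 left of the black line and round 2 right of it. Hspa1a and Hspa1b are below their means in all 6 round 1 libraries, down to −2.60 for Hspa1a in WT VEH 1, and above them in all 6 of round 2.

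Marker levels of other cell types also varied between the libraries, partly along the rounds and partly with WT MET 2 and RH VEH 2. All 12 T and NK, 8 B, 10 monocyte and dendritic and 12 granulocyte markers had fitted values above 0 for round 2 against round 1 (medians 0.38, 0.64, 0.29 and 0.40), and none was called. In each of these lists 1 marker had an unadjusted p under 0.05, against 14.4% of all genes. Also above 0 were 9 of 10 stem and progenitor, 8 of 9 stromal and endothelial, 6 of 7 tested megakaryocyte and 5 of 6 mast and basophil markers. Of 11 erythroid markers 5 lay above 0 and 6 below (median −0.09), and 51.1% of all genes lay above 0. The summed level of 9 stromal and endothelial marker genes was 82.9 to 286 CPM in the 6 libraries of round 1. In round 2 it was 580 to 928 CPM in library 3 of each group, but 108 CPM in WT MET 2 and 76.7 CPM in RH VEH 2. Hspa1a stood at 29.5 to 177 CPM in round 1, at 207 to 316 CPM in library 3 of each group, and at 501 and 529 CPM in WT MET 2 and RH VEH 2. The sum of 12 granulocyte markers was 3501 to 5278 CPM in round 1, 5042 to 7455 CPM in the same 4 libraries of round 2, and 1494 and 1591 CPM in WT MET 2 and RH VEH 2. That of 8 megakaryocyte markers was highest in the same pair, at 1932 and 1516 CPM, against 561 to 1021 CPM elsewhere, and their median between rounds was 0.12, or −0.19 without this pair. The part of cell makeup in the chaperone levels was not tested, and in bulk libraries fewer cells of a type and less RNA per cell cannot be told apart.

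Other genes of protein folding were read from 5 lists with 92 genes, 91 of them tested. None of the 91 was called in any of the 5 comparisons of the design. Among heat shock factors and other heat shock genes, 16 of 21 had fitted levels above 0 for RH against WT under vehicle (median 0.05), and 14 of 21 were below 0 under metformin (median −0.08). Hsf1, the main heat shock factor, ranged from 44.9 to 55.1 CPM over all libraries, and its log2 fold changes in these 5 comparisons lay between 0.00 and 0.02. Ubb, which supplies ubiquitin, is named from this list by its small p for RH against WT under metformin. It was at 673 ± 8.58 CPM (SD, n = 3) in RH MET and 899 ± 91.3 in WT MET, a log2 fold change of −0.46 ± 0.118 (edgeR adjusted p = 0.738).

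Alongside Ubb, 24 immediate early genes, which respond to many stimuli including cell handling, were all lower in RH MET than in WT MET, with a median log2 fold change of −0.60, and 16 had an unadjusted p under 0.05 (5.78% of all genes). Their summed level was 7137 to 8098 CPM in RH MET and 9245 to 12699 CPM in WT MET. None was called (0.00667% of all genes). Whether they bear on the chaperone values was not tested.

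The remaining lists had medians close to 0 in the 5 comparisons, from −0.18 to 0.11. Of the cytosolic co-chaperones, Ptges3, the Hsp90 partner p23, had a difference between metformin effects of −0.53 ± 0.217, and Ppp5c, a phosphatase that binds Hsp90, was at 0.30 ± 0.139 for RH against WT under vehicle. The chaperonin CCT folds actin and tubulin, which prefoldin hands over to it. There, Pfdn5 stood at −0.73 ± 0.248 for RH against WT under metformin and Pfdn4 at −0.91 ± 0.348 for the difference between metformin effects. In mitochondria, Dnajc19, a co-chaperone of protein import, was at −0.78 ± 0.301 for that difference, and Hscb, which serves iron-sulphur cluster assembly, at −0.51 ± 0.223 for RH against WT under metformin. Of the endoplasmic reticulum genes, the disulphide isomerase gene Pdia6 was at 0.38 ± 0.119 for RH against WT under vehicle, with 240 ± 18.7 CPM in RH VEH and 179 ± 13.9 in WT VEH, and Manf, a secreted stress protein, at −0.84 ± 0.353 for the difference between metformin effects. Their edgeR adjusted p-values ran from 0.648 to 0.977.

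Between the rounds the lists moved unevenly, again with no gene called. All 14 CCT and prefoldin genes were lower in round 2, with a median of −0.25, and 8 had an unadjusted p under 0.05 (14.4% of all genes). Of 22 cytosolic co-chaperones 20 were lower (median −0.14), as were 11 of 14 other mitochondrial chaperones and proteases (median −0.20), while 12 of 20 endoplasmic reticulum genes were higher (median 0.05). In the heat shock list 15 of 21 were lower, but Serpinh1, the collagen chaperone Hsp47, and Hspb1, the small heat shock protein Hsp27, stood at 1.87 ± 0.432 and 1.47 ± 0.407. These last genes were picked after their values were seen. Serpinh1 was low throughout, at 0.878 to 3.18 CPM in round 1 and 1.67 to 8.18 CPM in round 2. Hspb1 was also low, at 0.938 to 3.42 CPM in round 1 and 3.3 to 17.4 CPM in round 2. Over all genes, 48.9% were lower in round 2 and the median was 0.01.

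**Figure D5:**
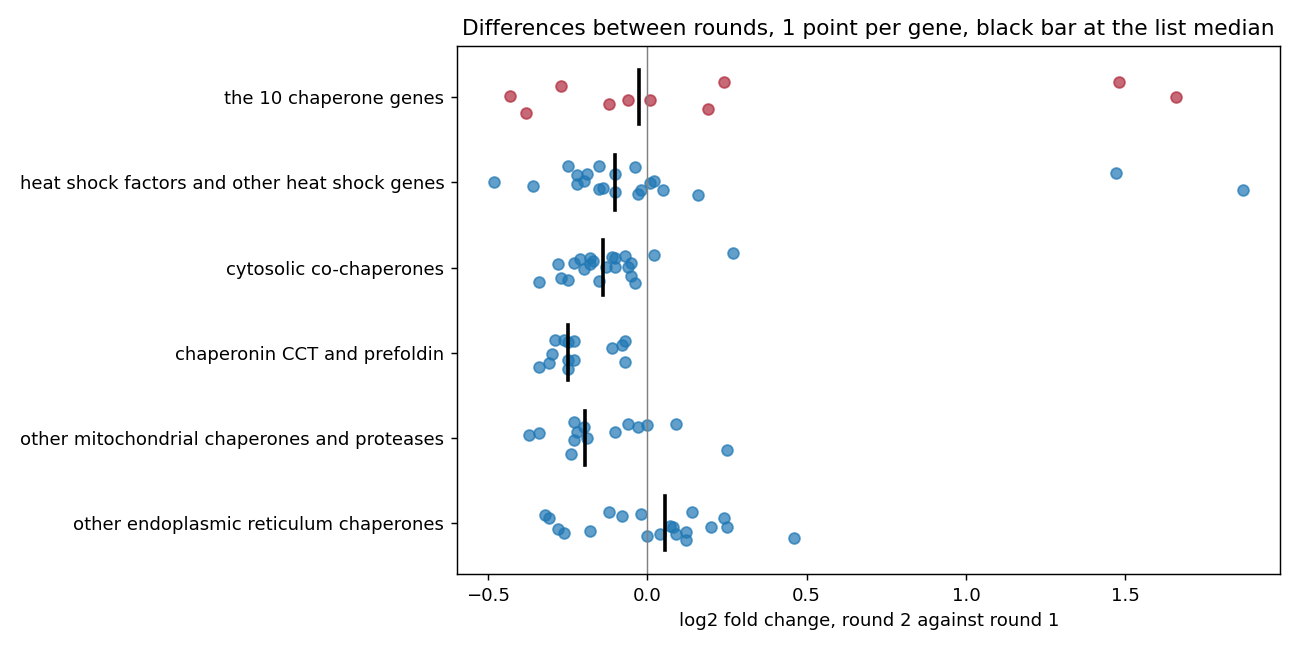
Log2 fold change of round 2 against round 1 (horizontal axis) for the 10 chaperone genes and the 5 lists of folding genes, 1 point per gene, with a black bar at each list's median. Hspa1a and Hspa1b lie at 1.66 and 1.48, while the 14 CCT and prefoldin genes all lie below 0.

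Likeness across the 12 libraries was measured as the root mean square difference of centred log2 CPM, over 9180 genes. A small value means deviations alike in size and direction, so genes that hardly vary are also near each other. The SD of log2 CPM was 1.2 for Hspa1a, 0.107 for Hspa8 and 0.25 for Hspd1. For Hspa8, small values can thus come from low variation alone and do not show a shared pattern. The gene nearest to Hspa1a was Hspa1b at 0.175, the copy with which it may share reads. The next, Inpp1 (0.758) and Robo3 (0.769), were far from Hspa1a, with a median of 1.19 over all genes. For Hspa8 the nearest were Rad17 (0.0546), Kansl2 (0.0703) and Ythdf2 (0.0748), against a median of 0.243. The nearest to Hspd1 was Hspa9, the mitochondrial Hsp70 mortalin, at 0.0741, followed by Larp1b (0.0872) and Gfm1 (0.0900), against a median of 0.305. Hspa9 stood at 574 to 670 CPM in round 1 and 447 to 582 CPM in round 2. Hspe1, which shares the divergent start with Hspd1, was not among the nearest 3.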

How the data were processed

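Raw read counts per gene, whole numbers without normalization, were deposited by the authors. STAR 2.5, HTSeq 0.6.1 and mm10 are named per the submitters' processing notes. The settings for multiply mapped reads and for strand are not given in the sources used here. Reads in the overlaps of Hspd1 with Hspe1 and of Hspa1a with Gm20481 may therefore be split or lost. The same holds for reads in the Hspa1a and Hspa1b copies and in other stretches shared between genes. Library numbers are those of the table's columns. For 7 columns the column name gives the group but not the exact sample. Among them, RH VEH 1 has the counts of the column RH VEH 2 in the smaller table, a number that a sample title also bears. In the smaller table, 2 columns matched no sample and were not used.

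Counts were tested with edgeR 4.0.16 (TMM, filterByExpr, robust quasi-likelihood fit) in R 4.3.3, fitting all 12 libraries at once with terms for group and round. DESeq2 1.42.0, other normalization, no filter, no round term, the column number as a block, single rounds, left-out libraries and summed Hspa1a and Hspa1b were the alternatives, and the code was tested on simulated data. The members and lists were chosen with earlier results of these data known. All 10 members are named. Of each list, genes past the threshold and the 2 of smallest p in the 5 comparisons are named, except 1 gene that is not reported here, and for likeness the 3 nearest genes to Hspa1a, Hspa8 and Hspd1 among genes whose mean log2 CPM reached 3 (prior count 2). Gene lengths are merged exons of GENCODE, and sequences are from RefSeq.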

Additional observations from a re-analysis of the deposited data

How the results depend on the processing

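No member was called in the 5 comparisons with RLE size factors, DESeq2, no round term, the replicate block, without WT MET 2 and RH VEH 2, or with any 1 library left out. Within a single round a group of each comparison holds 1 library, assumed to vary like the others, and the lowest adjusted p of a member was 1 in round 2, so the lack of calls there says nothing of stability. Without the filter on low counts edgeR called 2 members each for RH against WT under vehicle, metformin in WT and the difference between metformin effects. For round 2 against round 1, DESeq2 called 3, edgeR with no filter 2 and edgeR without WT MET 2 and RH VEH 2 called 3; leaving out single libraries gave 0 to 1. The no-filter calls in the 5 comparisons came with smaller SEs and not with larger fold changes, and the cause was not tested. Replicate numbers of the columns were not taken as pairs, since no label ties them and not every correlation passed 0.1: it ran from −0.0143 to 0.217 for number 1, 0.0625 to 0.366 for number 2 and 0.268 to 0.489 for number 3. Of the 12 libraries, 10 correlated best with their own number. Columns numbered 1 are all of round 1 and those numbered 3 all of round 2, and the correlations did not take the round out. They therefore cannot tell a pairing from the round. The replicate block called 0 members.

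Signs of some log2 fold changes depended on the setting, and the cause was not tested. With no filter, Hspa8 was at −0.01 (RH against WT, vehicle), 0.02 (RH against WT, metformin), −0.03 (metformin in WT) and 0.03 (difference between metformin effects), Hsph1 at 0.05 (RH against WT, metformin), Hsp90ab1 at −0.01 (metformin in WT) and Hspd1 at 0.01 (difference). With no round term, and with the replicate block, Hspa1a was at −0.81 and −0.58 and Hspa1b at −0.69 and −0.50 for RH against WT under metformin, and at −0.77 and −0.55 and at −0.57 and −0.38 for metformin in RH. Likewise Hspd1 was at 0.13 and 0.12 (metformin in RH), −0.08 and −0.09 (metformin in WT) and 0.21 and 0.21 (difference), and Hsp90ab1 at −0.03 and −0.05 (metformin in WT). Hspa5 was at 0.01 with no round term (metformin in RH), and Hsp90ab1 at −0.01 with the replicate block (RH against WT, vehicle).

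Without both libraries rich in mitochondrial counts, Hspa8 (−0.05) and Hsp90ab1 (−0.05) changed sign for RH against WT under vehicle and Hsph1 (0.34) under metformin. Hsph1 (0.10), Hspa8 (0.03), Hspa5 (0.01) and Hspd1 (0.06) did so for metformin in RH, Hsph1 (−0.08) and Hsp90ab1 (−0.06) for metformin in WT, Hsph1 (0.18), Hspa8 (0.01) and Hspd1 (0.05) for the difference, and Hsph1 (−0.10) and Hspa8 (−0.01) for the rounds. In round 1 alone the values were −0.26 for Hspa8 (RH against WT, vehicle), 0.39 for Hsph1 (RH against WT, metformin), 0.51, 0.15, 0.23 and 0.06 for Hsph1, Hspa8, Hspa5 and Hspd1 (metformin in RH), −0.02 for Hspa8 (metformin in WT), and 0.24, 0.17 and 0.01 for Hsph1, Hspa8 and Hspd1 (difference). In round 2 alone they were −0.14 for Hspa5 (RH against WT, vehicle), −0.93, −0.81 and 0.03 for Hspa1a, Hspa1b and Hspa8 (RH against WT, metformin), −0.89, −0.69 and −0.05 for Hspa1a, Hspa1b and Hsp90aa1 (metformin in RH) and −0.06 for Hsp90aa1 (metformin in WT).

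Leaving out 1 library at a time gave these ranges where a sign changed. RH against WT under vehicle: Hspa8 −0.12 to 0.15, Hsp90ab1 −0.06 to 0.18, Hspa5 −0.03 to 0.36. Under metformin: Hspa1a −0.23 to 0.55, Hspa1b −0.16 to 0.52, Hsph1 −0.23 to 0.45, Hspa8 −0.07 to 0.03, Hspd1 −0.01 to 0.15. Metformin in RH: Hspa1a −0.19 to 0.59, Hspa1b −0.04 to 0.65, Hsph1 −0.29 to 0.42, Hsp90aa1 −0.03 to 0.13, Hspa8 −0.16 to 0.03, Hspa5 −0.13 to 0.21, Hspd1 −0.10 to 0.06. Metformin in WT: Hsph1 −0.08 to 0.57, Hsp90aa1 −0.03 to 0.11, Hspa8 −0.11 to 0.09, Hsp90ab1 −0.08 to 0.14. Difference between metformin effects: Hsph1 −0.67 to 0.18, Hspa8 −0.20 to 0.12, Hspd1 −0.14 to 0.02. Round 2 against round 1: Hspa8 −0.07 to 0.09, Hspa5 −0.21 to 0.07.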
